A study of Mus musculus with 42 samples.

Results

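Kiss1, the gene for the kisspeptin precursor, was 1 of 19732 genes listed in the 6 deposited comparison tables of this mouse liver study, and all 6 tables hold a row for it. It was chosen by its values in KO obese vs KO lean mice, where it was far lower with obesity, and by a larger drop there than in WT mice. Differences of Kiss1 that use the lean or the vehicle-treated obese mice of either genotype are therefore given as a description, with a standard error (SE) and no test. Kiss1 was tested only between the RvE1-treated groups and in relations among mice within groups, which the group means do not enter. The livers came from 42 male C57BL/6J mice, 7 in each of 6 groups, with 1 library per mouse. KO mice lacked ChemR23, the receptor encoded by Cmklr1, through CRISPR/Cas9 genome editing, and WT mice were littermates. From 6 weeks of age, for 15 weeks, lean mice ate a control diet with 10% of energy as lard and obese mice a high fat diet with 60%. WT lean, KO lean, WT obese and KO obese mice were given vehicle (ethanol and PBS), while WT obese+RvE1 and KO obese+RvE1 mice received 300 ng of resolvin E1 (RvE1), a lipid mediator that binds ChemR23. Injections were intraperitoneal on 4 consecutive days, and livers were taken on day 5 after a fast of at least 4 hours. The samples were whole livers, in which fewer cells of a type and less RNA per cell cannot be told apart.

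Kisspeptins are short peptides cut from the Kiss1 precursor, and they act through Kiss1r (also GPR54), a receptor coupled to Gq that raises calcium in the cell. They are best known as hypothalamic signals that drive the release of gonadotropin-releasing hormone. In liver, glucagon signalling through cAMP, protein kinase A and the transcription factor CREB is known to raise Kiss1, and liver kisspeptin is known to act on pancreatic beta cells, where it lowers insulin secretion.

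Kiss1 lies on chromosome 1 at chr1:133321875-133329901 on the plus strand (GRCm38, GENCODE M21, gene ENSMUSG00000116158.1), with 779 bases of exon in all. Its longer transcript has exons of 102, 131 and 546 bases, and the shorter one starts at the second exon. All 102 bases of the first exon lie inside the last exon of Golt1a, a vesicle transport gene on the same strand (chr1:133309800-133323026). A read-through gene, Gm28040, joins exons of Golt1a to exons of Kiss1 in the annotation and has 0 rows in the tables. Reads from these overlapping genes may have been split or left out by the counting, so the level of Kiss1 is uncertain to that extent. The RefSeq promoter window before the start of the shorter transcript (GRCm38.p6, chr1:133326962-133327211, plus strand, 250 bases) is shown because CREB, which acts on Kiss1 in liver, binds cAMP response elements (CRE). The capitals mark the one match to the CRE half-site:
Kiss1 promoter window: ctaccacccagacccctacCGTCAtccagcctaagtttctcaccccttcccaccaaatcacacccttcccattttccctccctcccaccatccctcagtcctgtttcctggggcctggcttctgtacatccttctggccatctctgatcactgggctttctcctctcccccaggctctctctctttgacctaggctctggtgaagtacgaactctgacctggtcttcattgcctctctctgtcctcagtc
Searched on both strands, the full CRE (TGACGTCA) had 0 matches there, and 1.55% of 32851 promoter windows of all genes hold it. The half-site (TGACG or CGTCA, part of the full CRE) had 1 match and is held by 17.8% of windows, so its presence is common. The CCAAT box (CCAAT) and the TATA box (TATAAA) had 0 matches, against 33.8% and 12.4% of windows with one. A match to these letters is not evidence of binding.

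Levels are given as scaled read counts: whole reads recovered from the deposited normalized counts and divided by size factors set over all 42 libraries. Kiss1 was a low but measurable transcript, with 14 to 162 reads per mouse and a mean scaled count of 49.0 over the 42 mice, above 15.8% of the 13056 genes with recovered reads for every mouse. KO lean mice held the most, from 46.4 to 155.6 with a median of 108.7 (mean 100.6 ± 37.0, SD, n = 7). WT lean mice held between 22.1 and 95.3, with a median of 62.6 (mean 55.7 ± 27.5, n = 7). Every WT lean mouse was below the KO lean median, and 4 of the 7 KO lean mice were above every WT lean mouse.

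In obese mice the levels were lower. In WT obese mice Kiss1 ranged from 20.2 to 60.2, with a median of 34.8 (mean 35.8 ± 13.0, n = 7). In KO obese mice it ranged from 20.4 to 41.2, with a median of 22.6 (mean 27.0 ± 7.99, n = 7), and every KO obese mouse was below every KO lean mouse. The WT obese and WT lean groups overlapped, with 4 WT lean mice above all WT obese mice and 1 WT obese mouse below all WT lean mice.

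RvE1-treated mice spread widely. WT obese+RvE1 mice ranged from 16.1 to 63.0, with a median of 26.2 (mean 35.4 ± 18.7, n = 7). KO obese+RvE1 mice ranged from 14.0 to 71.3, with a median of 40.7 (mean 39.7 ± 25.2, n = 7). Of these KO mice, 3 were above and 3 below the whole KO obese range. By mean, the order was KO lean, WT lean, KO obese+RvE1, WT obese, WT obese+RvE1 and KO obese, and each neighbouring pair in that order overlapped.

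**Figure D1:**
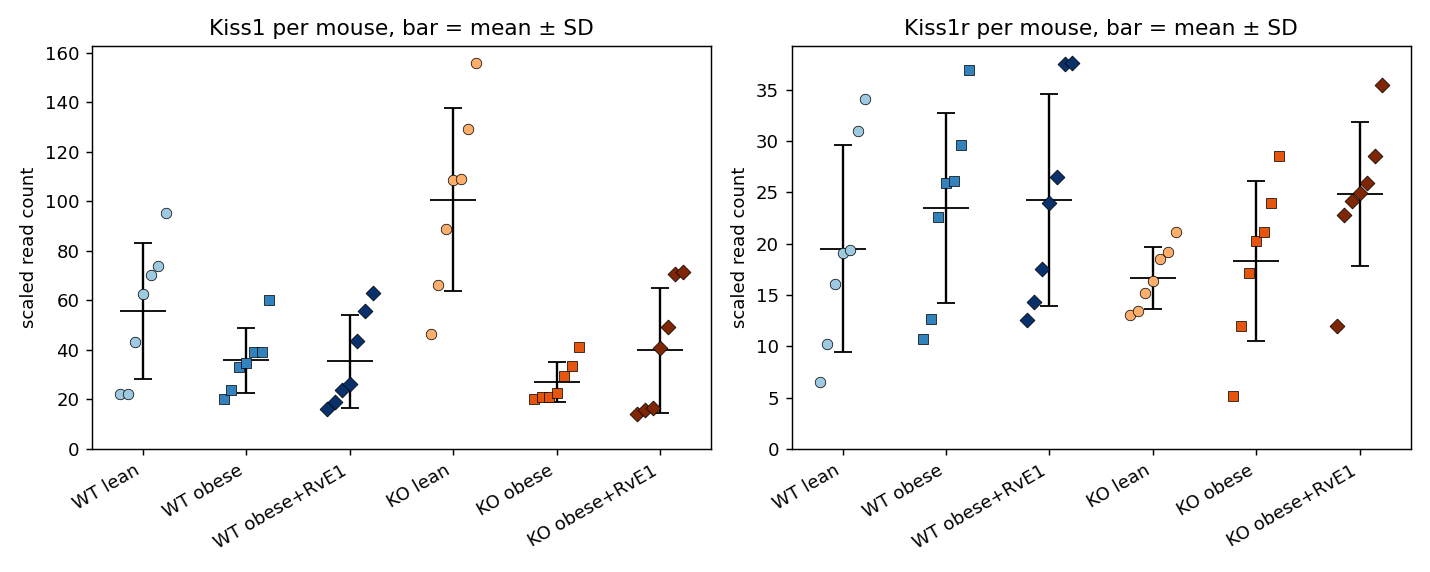
Scaled read counts of Kiss1 (left) and its receptor Kiss1r (right) in each of the 42 mice by group, with the mean and SD as bars. KO lean mice reached 155.6 for Kiss1, and no KO obese mouse exceeded 41.2, while Kiss1r stayed between 5.12 and 37.6 in all groups.

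The coefficient of variation between mice of a group was 29.6% in KO obese to 63.3% in KO obese+RvE1 mice. Counting error alone amounts to 9.87% in KO lean to 20.3% in KO obese mice. On the log2 scale the SD of Kiss1 within groups was 0.71, above that of 89.8% of the 2565 genes with a mean scaled count of 20 to 100, whose median was 0.45.

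The first comparison asked whether diet-induced obesity changed Kiss1. In WT obese vs WT lean mice, the Kiss1 Log2FC was -0.52 (SE 0.33). A gene was called when its BH-adjusted p lay under 0.1 and its fold change exceeded 1.5, and 3.8% of 14012 genes passed in this comparison. In KO obese vs KO lean mice the Log2FC was -1.81 (SE 0.25), or 3.51-fold lower, and 10.4% of 14213 genes were called. The KO diet change minus the WT diet change, which holds the same chosen values, was -1.30 (SE 0.51).

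The second comparison concerned genotype. In KO lean vs WT lean mice, the Kiss1 Log2FC was 0.92 (SE 0.34), where 6.65% of 13031 genes were called, 514 higher and 352 lower. Taking the first number in a mouse's identifier as a random block left 2 higher and 1 lower called there, and 345 higher and 405 lower in KO obese vs KO lean mice, from 706 and 770, and 141 higher in WT obese vs WT lean mice, from 317. In KO obese vs WT obese mice it was -0.36 (SE 0.24), where 0.0141% of 14162 genes were called. Both values share mice with those that Kiss1 was chosen on, and neither is tested. Cmklr1, the targeted gene, had means of 12.2 to 14.8 scaled counts in the KO groups against 63.2 to 76.7 in the WT groups. It fell by 2.23 on the log2 scale in KO lean vs WT lean (SE 0.24, limma BH-adjusted p = 0.000492) and fell by 2.04 in KO obese vs WT obese mice (SE 0.31, limma BH-adjusted p = 0.0339), with no overlap between groups. The call in obese mice was lost with the random block (BH-adjusted p = 0.153), with equal read totals (0.142) and without WT obese 1 (0.127), WT obese 5 (0.132), KO obese 3 (0.106) or KO obese 5 (0.120), all by limma.

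The third comparison asked whether RvE1 changed Kiss1 in obese mice. In WT obese+RvE1 vs WT obese mice the Kiss1 Log2FC was -0.11 (SE 0.31). No gene was called there (0% of 13085 genes by limma), although 795 had an unadjusted p under 0.05, edgeR called 1 lower and DESeq2 called 3 higher and 12 lower. In KO obese+RvE1 vs KO obese mice the Log2FC was 0.31 (SE 0.37), and 0% of 14207 genes were called by limma, with 1179 at an unadjusted p under 0.05, 0 called by edgeR and 5 higher and 9 lower by DESeq2. The KO change minus the WT change with RvE1 was 0.42 (SE 0.51).

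Groups that no table sets side by side were compared in 1 fit over the 42 mice. KO obese+RvE1 vs WT obese+RvE1 mice differed in Kiss1 by a Log2FC of 0.05 (SE 0.36, 95% interval -0.69 to 0.79, limma BH-adjusted p = 0.998), and 0.00766% of 13056 genes were called. WT obese+RvE1 vs WT lean mice differed by -0.62 (SE 0.36), and 5.96% of genes were called. KO obese+RvE1 vs KO lean mice differed by -1.50 (SE 0.36).

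**Figure D2:**
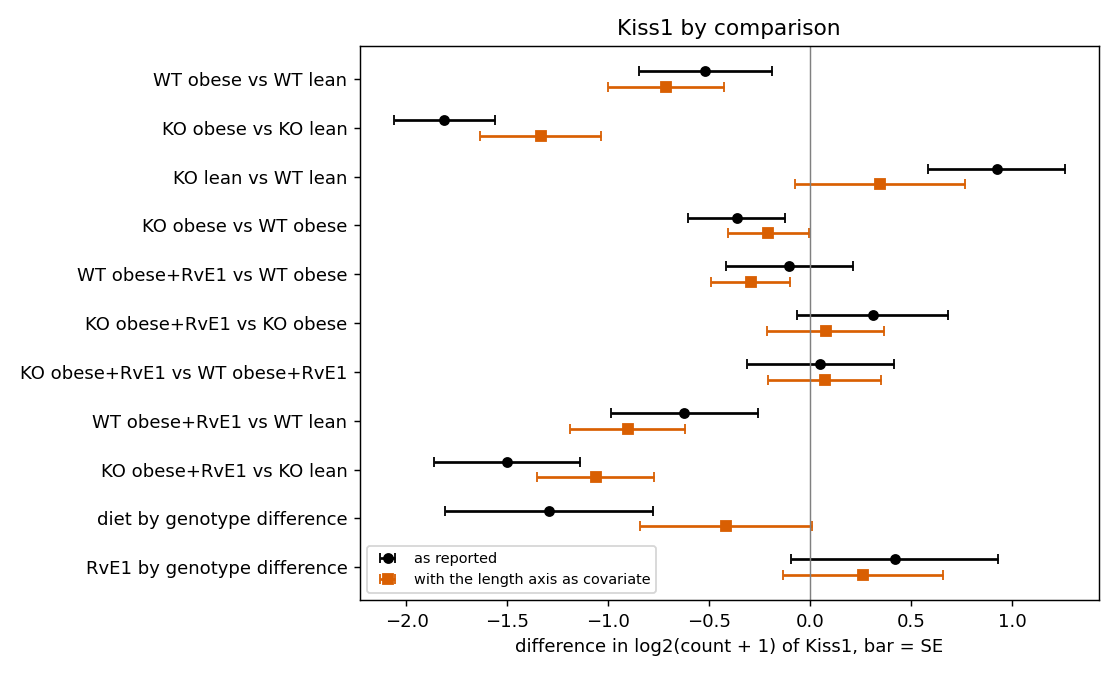
Difference in log2(count + 1) of Kiss1 in each comparison, with SE bars, as reported (black circles) and with the length axis of each library as a covariate (orange squares). The drop in KO obese vs KO lean mice was -1.81 as reported and -1.34 with the covariate, and the diet by genotype difference moved from -1.30 to -0.42.

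A property of the libraries moved with Kiss1. For each library a length axis was computed as the median deviation of the genes in the shortest quartile (exons up to 2726 bases) minus that of the longest quartile (from 6754 bases), on the log2 scale. KO lean libraries had the highest median, with values from -0.08 to 0.63 and a median of 0.21, against a median of -0.10 in KO obese and -0.15 in WT lean libraries. With group means taken out, Kiss1 rose with the axis over the 42 mice (Pearson r = 0.67, permutation p = 5e-05, BH-adjusted p = 0.000125 over 5 relations, permuting mice within groups). Spearman rho was 0.68 (permutation p = 3e-05), and r was 0.60 without the 2 mice farthest from the median axis. Within groups r ran from 0.49 in KO obese to 0.98 in WT obese+RvE1 mice. Kiss1, with 779 bases of exon, is itself in the shortest quartile, so a positive relation to the axis is partly built in. How many other short genes relate to the axis as strongly was not counted. With the axis as a covariate, an alternative added after the values were seen, the Kiss1 difference was 0.35 (SE 0.42) in KO lean vs WT lean and -1.34 (SE 0.30) in KO obese vs KO lean mice, and -0.42 (SE 0.43) for the diet by genotype difference. In WT obese vs WT lean mice it was -0.72 (SE 0.29). The axis and the group cannot be fully told apart, because its median was highest in KO lean libraries, and the same covariate took the genes called in KO lean vs WT lean mice to 1 higher and 1 lower, from 514 and 352. In KO obese vs KO lean mice it took them to 95 higher and 71 lower, from 706 and 770. Scaling to equal read totals, which shifted the median of all genes, gave 265 higher and 734 lower in KO lean vs WT lean and 1320 higher and 351 lower in KO obese vs KO lean mice, with Kiss1 at 0.81 and -1.67.

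**Figure D3:**
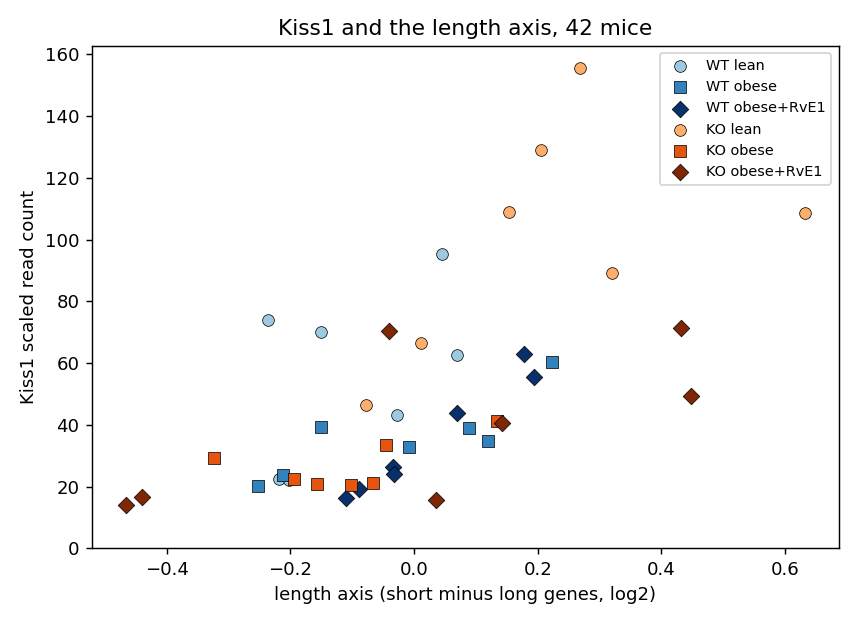
Kiss1 scaled read count of each mouse (vertical) against the length axis of its library (horizontal, log2 scale), coloured and shaped by group. The highest axis value, 0.63, is that of a KO lean mouse, and KO obese+RvE1 mice span the axis from -0.47 to 0.45.

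Reads per library ran from 15992525 to 43841120 and their relation to Kiss1 within groups did not pass the test (r = -0.27, permutation p = 0.125, rho = -0.30, permutation p = 0.0950, r = -0.32 without the 2 farthest mice). The labels do not say what the number that opens each mouse identifier marks. Groups held 2 to 4 such numbers, and all but number 23 lay within 1 group. In WT obese+RvE1 mice it split Kiss1, with 43.8 to 63.0 in the 3 mice of number 30 and 16.1 to 26.2 in the 4 mice of number 7, whose length axis also lay apart (0.07 to 0.19 against -0.11 to -0.03). With the means of each group and number taken out and mice permuted within them, an alternative added after the values were seen, Kiss1 still rose with the length axis over 39 mice (r = 0.81, rho = 0.81, BH-adjusted permutation p = 0.000175 and 0.000300).

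Markers of other cell types also moved in these comparisons. The summed level of the 6 measured Kupffer cell markers, macrophages of the liver, was 6866 to 14634 in KO lean, 3801 to 5173 in KO obese and 2807 to 6449 in WT lean mice, so KO lean mice did not overlap with either. All 6 of 6 tested rose in KO lean vs WT lean mice, where 6.65% of all genes were called, and 4 of 6 fell in KO obese vs KO lean mice, where 10.4% were. With the random block, 0 of 6 and 4 of 6 were called. With the length axis as covariate all of these calls were lost, for example for Timd4 in KO obese vs KO lean mice (-0.90, SE 0.17 as reported and -0.83, SE 0.23, limma BH-adjusted p = 0.132 with it). Of lymphocyte markers, 2 of 5 tested rose and 5 of 8 fell in the same comparisons. Hepatocyte markers made up 1185380 to 2002840 counts over the mice of all groups, with 0 of 7 called, and of 13 pancreas markers at most 1 passed the filter on low counts in any table. The part of other cell types in the Kiss1 values was not tested.

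Kiss1r, the receptor, was low in every group, with means of 16.7 to 24.8 scaled counts. Per kilobase of exon, Kiss1 averaged 34.6 to 129.1 and Kiss1r 4.33 to 6.44 scaled counts. Kiss1r passed the test in none of the 6 table comparisons, with Log2FC from -0.38 (SE 0.35) in KO obese vs WT obese to 0.51 (SE 0.32) in KO obese+RvE1 vs KO obese mice and limma BH-adjusted p from 0.650 to 1.00. Within groups its relation to Kiss1 did not pass the test (r = -0.27, permutation p = 0.0988, rho = -0.26, permutation p = 0.105, r = -0.30 without the 2 farthest mice). With the means of each identifier number taken out too, it passed (r = -0.45, rho = -0.51, BH-adjusted permutation p = 0.0237 and 0.0196, over 39 mice). Within single groups r was 0.26 in WT lean and 0.42 in KO lean mice. In the obese groups it ran from -0.83 in WT obese+RvE1 to -0.45 in KO obese+RvE1 mice, so the relation was not alike in all groups. Of the related RFamide peptides, Npff, the precursor of neuropeptide FF, had means of up to 25.6 scaled counts and was called in none of the tables. Its largest change was 0.56 (SE 0.20) in KO obese vs KO lean mice (limma BH-adjusted p = 0.0672). This passed on adjusted p and missed the call on fold change alone (1.47-fold), so without a fold threshold Npff was called. The number of RFamide genes called there also rose with edgeR, DESeq2, equal totals and the length and GC correction. Qrfp, the precursor of the peptide 26RFa, was tested in 4 tables and called in none.

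Of the genes near Kiss1, Golt1a had the highest mean within-group correlation with it in the ranking given below. Golt1a held 449.7 to 741.7 scaled counts in KO lean and 336.3 to 468.4 in KO obese mice, and it fell by 0.64 on the log2 scale (SE 0.13, limma BH-adjusted p = 0.00637), a call that was lost with the length axis as covariate (-0.50, SE 0.16, limma BH-adjusted p = 0.180). Within groups Kiss1 and Golt1a rose and fell together over the 42 mice (r = 0.73, permutation p = 2e-05, rho = 0.73, permutation p = 1e-05, the smallest the permutations can give, and r = 0.72 without the 2 farthest mice). Within single groups r was 0.62 in KO obese to 0.80 in WT lean mice. The genes share the stretch of exon described above, and the relation was looked at after the values were seen. For 100 Golt1a counts there were 16.9 ± 4.56 Kiss1 counts in KO lean, 7.16 ± 1.63 in KO obese, 12.4 ± 4.88 in WT lean and 9.09 ± 2.69 in WT obese mice (SD, n = 7 each). This ratio did not overlap between KO lean (10.0 to 23.1) and KO obese mice (5.50 to 9.39). Kiss1 was chosen on these groups, so the separation is partly carried over from that choice and is given as a description.

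**Figure D4:**
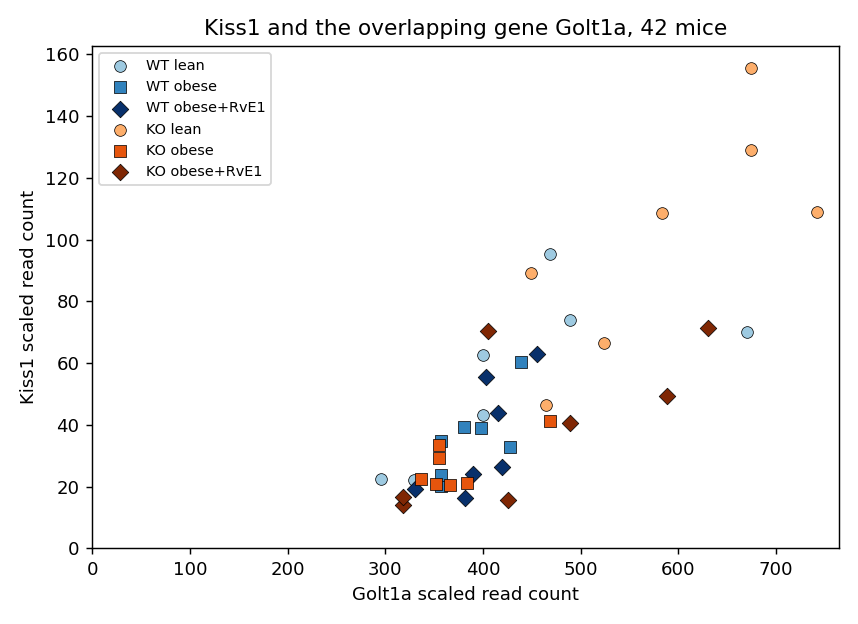
Kiss1 against Golt1a, both as scaled read counts, in each of the 42 mice, coloured and shaped by group. Most KO lean mice lie at the upper right, with Golt1a up to 741.7 and Kiss1 up to 155.6.

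Etnk2, an ethanolamine kinase 33671 bases after Kiss1, also followed it within groups (r = 0.62, permutation p = 0.000110, rho = 0.62, permutation p = 0.000110, r = 0.65 without the 2 farthest mice). Its r was -0.00088 in KO lean and 0.94 in KO obese+RvE1 mice, so the relation was not alike in all groups. With the means of each identifier number taken out too, r was 0.86 for Etnk2 and 0.77 for Golt1a (rho 0.79 and 0.73, over 39 mice). In the ranking of 11340 genes given below, over the diet mice alone, Etnk2 had a mean r of 0.35, rank 2093. Golt1a had 0.75, rank 49, and Snrpe, a further neighbour, had 0.55, rank 783. In the RvE1-treated mice, 38.6% of the ranked genes reached a correlation of 0.6 in size. BH-adjusted over the 5 relations, the permutation p of r and rho were 0.0001 and 5e-05 for Golt1a, 0.000183 for both with Etnk2, 0.123 and 0.105 for Kiss1r and 0.125 and 0.105 for reads per library. Etnk2 fell by 0.86 in KO obese vs KO lean mice (SE 0.31, limma BH-adjusted p = 0.0687), a call that was lost with the random block (-0.75, SE 0.34) and with the length axis as covariate (-0.23, SE 0.36). Snrpe, a splicing protein gene 273970 bases after, rose by 0.64 in KO lean vs WT lean mice (SE 0.18, limma BH-adjusted p = 0.0502), which was lost with the random block (limma BH-adjusted p = 0.157). Plekha6, Gm19461 and Ppp1r15b, the 3 listed genes before Kiss1, and Sox13 after it were called in none of the tables.

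Genes that rose and fell with Kiss1 from mouse to mouse were sought over 11340 genes, by the mean of 2 within-group Pearson correlations, in the 14 WT and the 14 KO mice of the diet tables. The 6 highest were Dctn2, a dynactin subunit (mean r = 0.85), Il1a, an inflammatory cytokine (0.84), Fastk, a mitochondrial RNA regulator (0.83), Aldh16a1, of the aldehyde dehydrogenase family (0.83), Psma7, a proteasome subunit (0.82), and Ntmt1, an N-terminal methyltransferase (0.81). The 4 lowest were Sh3d19 (-0.85), Zbtb14 (-0.81), Fam168a (-0.81) and Ankfy1 (-0.81). These correlations are a description, since the genes were picked as the extremes of the ranking. The order was not stable, since 2 of the 6 highest stayed among the 6 highest by Spearman rho, 2 with the length axis taken out and 1 with identifier number means taken out.

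In the 14 RvE1-treated mice, which the ranking did not use, all 10 kept their sign, as did 71.0% of all ranked genes. At a BH-adjusted permutation p under 0.05, the relation passed there by both r and rho for Sh3d19, Fam168a and Ankfy1. These genes have 8888, 7252 and 11332 bases of exon, within the longest quartile used for the length axis. Kiss1 itself followed that axis in these mice, with r = 0.98 in WT obese+RvE1 and 0.74 in KO obese+RvE1 mice. The axis was not taken out of these relations, so a shared relation to it cannot be told apart. Sh3d19 had r = -0.87 and rho = -0.88 (permutation p = 0.000170 and 0.000320, BH-adjusted 0.00170 and 0.00320, r = -0.81 without the 2 farthest mice). Fam168a had r = -0.81 and rho = -0.82 (BH-adjusted permutation p = 0.00740 and 0.00930). Ankfy1 had r = -0.75 and rho = -0.73 (BH-adjusted permutation p = 0.0124 and 0.0380). By r alone the relation passed for Psma7 (r = 0.73, rho = 0.66, BH-adjusted permutation p = 0.0124 and 0.0504) and Dctn2 (r = 0.67, rho = 0.69, BH-adjusted permutation p = 0.0454 and 0.0504). For Fam168a, Ankfy1, Psma7 and Dctn2 the unadjusted permutation p of r was 0.00148, 0.00395, 0.00495 and 0.0227, and r without the 2 farthest mice was -0.74, -0.68, 0.60 and 0.55. The relation did not pass for Aldh16a1, Ntmt1, Fastk and Zbtb14, and Il1a had r = 0.09. These permutations treat the mice of a group as exchangeable. With identifier number means taken out and mice permuted within them, Sh3d19, Fam168a and Ankfy1 passed again (r = -0.90, -0.88 and -0.88, BH-adjusted permutation p = 0.0118, 0.0205 and 0.0205). Ntmt1 passed too (r = 0.89, BH-adjusted permutation p = 0.0101). Dctn2 and Psma7 did not pass at 0.05 by r (r = 0.74 and 0.87, both 0.101) or by rho (BH-adjusted permutation p = 0.0502 and 0.0518). A correlation of at least 0.6 in size was common in those mice, since 38.6% of the 11340 genes reached it.

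**Figure D5:**
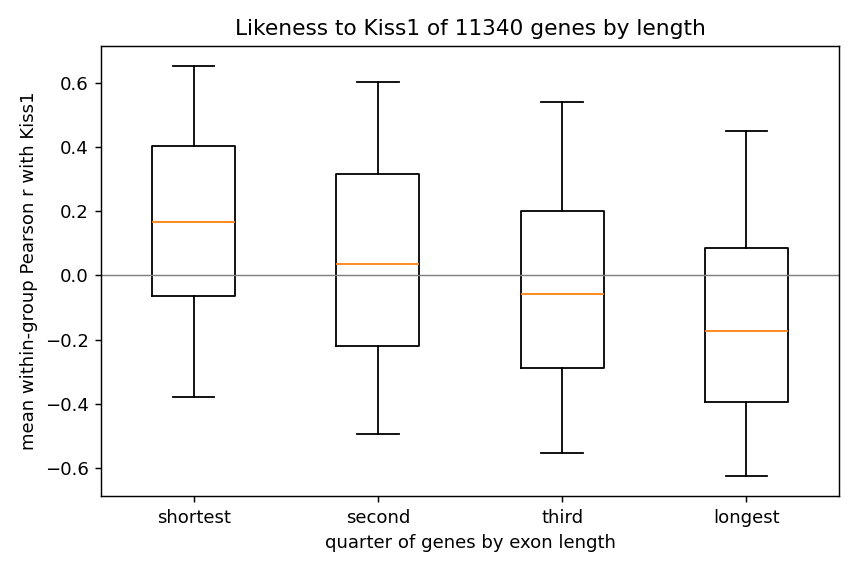
Mean within-group correlation with Kiss1 of the 11340 ranked genes, by quartile of exon length, as boxes (median and quartiles) with whiskers at the 5th and 95th percentile. The median falls from 0.17 in the shortest quartile to -0.17 in the longest.

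The ranking followed gene length. The median correlation was 0.17, 0.04, -0.06 and -0.17 from the shortest to the longest quartile of genes, and the 100 highest genes had a median exon length of 2780 bases against 7479 in the 100 lowest and 4436 in all. Correlations above 0.6 were found for 500 genes, 224 of them in the shortest quartile, and below -0.6 for 336 genes, 189 of them in the longest. With the length axis taken out too, Dctn2 (0.83) and Il1a (0.81) stayed first and Zbtb14 (-0.80) was lowest. Sh3d19 had -0.78, Fam168a -0.69 and Ankfy1 -0.70.

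When group means were kept, the genes closest to Kiss1 over the 14 KO mice of the diet table were Hyal2, a hyaluronidase (r = 0.95), Mlycd, malonyl-CoA decarboxylase (0.95), and Tbc1d22a (0.95), and the most opposed were Ids, a lysosomal sulfatase (-0.94), and Pkp4 (-0.94). Over the 14 WT mice the closest were Insc (0.90), Twistnb (0.87) and Snora65 (0.87), and the most opposed Gab1 (-0.86) and Hrg (-0.85). These correlations hold the group differences that Kiss1 was chosen on and are given as a description.

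In the lists that follow, every gene said to rise or fall was called by limma. Of all genes, 3.8% were called in WT obese vs WT lean mice. The share was 10.4% in KO obese vs KO lean and 6.65% in KO lean vs WT lean mice. The glucagon route that is known to raise Kiss1 was described with a list of 32 genes from the glucagon receptor to CREB. In WT obese vs WT lean mice 2 of 30 tested fell and none rose, namely Adcy1, an adenylyl cyclase (-3.29, SE 0.65, limma BH-adjusted p = 0.00967), and Crem, a CREB relative (-1.18, SE 0.34, limma BH-adjusted p = 0.0688). In KO obese vs KO lean mice 2 of 30 rose, Adcy9 (0.65, SE 0.16) and Crebbp (0.63, SE 0.24), and 1 fell, Adcy1 (-1.93, SE 0.68). In KO lean vs WT lean mice 4 of 29 fell, among them Adcy5 (-0.75, SE 0.22), Pde3a (-0.59, SE 0.17) and Ep300 (-0.59, SE 0.19). With the random block, 0 genes of this list or the next ones were called in KO lean vs WT lean mice, and of this list Adcy1 in WT and Adcy9 in KO mice remained called with diet. Within groups the phosphodiesterase gene Pde8a had a mean r of -0.79 with Kiss1, rank 11336 of 11340, the most opposed of the list and named after its value was seen. The list medians were -0.08, 0.13 and -0.28 in these comparisons, against 0.00 for all genes tested.

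Of 22 genes that fasting and cAMP induce in liver, 5 fell and none rose in WT obese vs WT lean mice, which included the fasting hormone Fgf21 (-1.68, SE 0.33), the insulin receptor substrate Irs2 (-1.48, SE 0.35) and the pyruvate dehydrogenase kinase Pdk4 (-2.10, SE 0.64), with limma BH-adjusted p of 0.0102, 0.0279 and 0.0870. In KO obese vs KO lean mice 2 of 21 fell, Fgf21 (-1.39, SE 0.30) and Klf15 (-0.77, SE 0.25), and 1 rose, Foxo1 (0.62, SE 0.25). In KO lean vs WT lean mice 4 of 21 fell and none rose, with Nr4a1 (-2.76, SE 0.72), Irs2 (-1.35, SE 0.38) and Sik1 (-1.29, SE 0.37) as the leading ones. The same WT lean mice were the reference here and in WT obese vs WT lean mice. Their normalized counts spread widely, with means of 1566 ± 2103 for Nr4a1, 1637 ± 1377 for Irs2 and 1631 ± 1633 for Sik1 (SD, as scaled with KO lean mice). The list medians were -0.60, -0.24 and -0.35. With the random block, Fgf21 and Irs2 in WT mice and Fgf21 in KO mice remained called with diet. Within groups the mean r with Kiss1 ran from 0.47 for G6pc, glucose-6-phosphatase (0.65 in WT and 0.30 in KO mice), to -0.45 for Sesn1 (-0.72 and -0.18). Pdk4 had r = -0.67 in WT and -0.07 in KO mice, and Gadd45b 0.16 and 0.68.

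Of 23 genes that act below Kiss1r, 3 (13.0%) rose in KO obese vs KO lean mice, where 10.4% of all genes were called. They were the protein kinase C gene Prkca (0.95, SE 0.17) and the calcium channels Itpr1 (0.82, SE 0.19) and Itpr2 (0.60, SE 0.18). In KO lean vs WT lean mice Prkca (-0.62, SE 0.14) and Itpr2 (-0.74, SE 0.19) fell, 8.70% of the list against 6.65% of all genes. Both shares lay near those of all genes. The list medians were 0.09 and -0.002 in these 2 comparisons. In WT obese vs WT lean mice 0 of 23 were called. Of the proteases that can cut kisspeptin or its precursor, 9 were tested with diet in each genotype. Mmp14 fell with diet in WT (-0.85, SE 0.18) and in KO mice (-0.64, SE 0.21), and Pcsk6 rose in KO mice (0.98, SE 0.17). These calls made up 11.1% of the tested proteases in WT and 22.2% in KO mice, with list medians of -0.19 and 0.13. In KO lean vs WT lean mice 0 of 8 were called. With the random block, Mmp14 in WT and Prkca, Itpr1 and Pcsk6 in KO mice remained called with diet. Across these 4 lists, 0 genes were called in KO obese vs WT obese, WT obese+RvE1 vs WT obese and KO obese+RvE1 vs KO obese mice by limma. With the length axis as covariate, 0 were called in KO obese vs KO lean and KO lean vs WT lean mice.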

How the data were processed

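Liver RNA of 42 mice was sequenced. The authors made TruSeq stranded RNA libraries, aligned them with Bowtie2 (mm10) and used featureCounts to count read pairs (the sources used here give no versions, annotation or strand setting); the submitters' processing notes list the same tools. The deposited signal values are counts divided by DESeq2 size factors, set separately over the 14 libraries of each of 6 tables. The authors' fold changes and p-values in the same tables were not used. Whole reads were recovered from all deposited values (100% whole within 0.1 reads, with 0 differences between tables), at 15992525 to 43841120 reads per library.

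Each comparison was tested, two-sided, with limma (3.58.1, R 4.3.3, lmFit and eBayes with trend) on log2(normalized count + 1), on genes with a mean of at least 5, with BH adjustment over all genes. The 3 comparisons that no table holds, and the interactions, used recovered reads of 42 libraries scaled by median of ratios. Because of the added 1, changes of low genes are understated. Likeness to Kiss1 was ranked on genes with a mean of at least 20. Permutation p-values used 100000 draws, two-sided, within groups, with BH adjustment over the relations tested. Named genes were Kiss1, listed RFamide genes and Cmklr1, per list and table up to 3 called genes each way by smallest adjusted p, the 3 nearest genes on each side and any overlapping, and the extremes of each ranking. The Kiss1 comparisons of WT mice were planned as tests and are given as descriptions, since the choice of Kiss1 used the drop in WT mice. Kiss1, the lists, rules and tests were chosen with earlier results of these data known. The limma fit was tried on simulated counts with planted changes. The simulation held no length axis, no identifier numbers and a single dispersion for all genes, so it does not test how the fit handles those features.

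Alternatives were pseudocounts of 0.5 and 4, no filter, TMM, equal totals, quality weights, the identifier number as a random block, edgeR (4.0.16) and DESeq2 (1.42.0) on recovered reads, other call thresholds, and leaving out each mouse. A length and GC correction (loess span 0.3), the length axis and relations within identifier numbers were added after the values were seen. Annotation was matched by symbol for 92.9% of names. P-values weigh a difference or correlation against the spread between these mice. Outside the alternatives that use the identifier number, they treat the mice of a group as independent.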

Additional observations from a re-analysis of the deposited data

Results flagged for a closer look

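Among 18 groups looked at (Kiss1, Kiss1r and Golt1a in each group), 1 held a mouse far from the rest: the highest Golt1a value in KO obese mice, 468.4 scaled counts, whose gap to the next mouse at 383.7 was 0.64 of the whole range, above the critical 0.568 for 7 mice. Chance gives about 1 such group in 20. The Kiss1 value of no group stood apart in this way, and of 84 genes looked at for a diet or RvE1 effect that differs by genotype the lowest limma BH-adjusted p was 0.174.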

How the results depend on the processing

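Of the Kiss1 comparisons, KO obese vs KO lean ranged from -2.07 to -1.34 over 25 alternatives and KO lean vs WT lean ranged from 0.35 to 1.20. WT obese vs WT lean ranged from -0.72 to -0.36. The diet by genotype difference was -0.42 with the length axis as covariate and between -1.68 and -0.94 under the other alternatives. WT obese+RvE1 vs WT lean mice ranged from -0.91 to -0.47. A random block on the identifier number turned the sign in WT obese+RvE1 vs WT obese (0.0051). It did so too between the RvE1-treated KO and WT mice (-0.019), and leaving out 1 mouse gave -0.27 to 0.048 and -0.13 to 0.24. The tested one, between the RvE1-treated groups, passed under none of its 25 alternatives (BH-adjusted p from 0.767 to 1.00 by limma, edgeR or DESeq2). The cause was not tested.

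The count of called genes on the 4 lists in WT obese vs WT lean mice went to 4 with the random block and 4 at an adjusted p under 0.05, and in KO obese vs KO lean mice to 5 with the block, 7 with the length and GC correction, 0 with the length axis and 25 with no fold threshold. In KO lean vs WT lean mice it went to 16 with equal totals, 19 with quality weights, 0 with the block, 5 with the length and GC correction, 0 with the length axis and 4 at an adjusted p under 0.05. In WT obese+RvE1 vs WT obese mice DESeq2 called 1. Leaving out 1 mouse gave 4 to 9 against 8 in WT obese vs WT lean, where WT lean 2 to 5 and WT obese 2, 3, 5, 6 and 7 each took it to 4 or 5. It gave 5 to 14 against 11 in KO obese vs KO lean (5 without KO obese 7, 7 without KO lean 6 or KO obese 6), and 2 to 17 against 10 in KO lean vs WT lean (2, 3, 17 and 6 without KO lean 6, 4, 5 and 3, and 5 and 4 without WT lean 2 and 5). Equal totals moved the median of all genes by 0.14 in KO obese vs KO lean and -0.12 in KO lean vs WT lean mice. The mean correlation of Dctn2 stayed between 0.77 and 0.89, while that of Il1a fell to 0.72 with identifier number means taken out, and leaving out 1 mouse kept 3 to 6 of the 6 highest genes. No paired analysis was run, because the labels do not state a pairing of mice between groups. Identifier number 23, the only one found in more than 1 group, covers 1 KO obese and 2 KO obese+RvE1 mice. Kiss1 rests on as few as 14 reads in a mouse, which limits what could be detected.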
